A study of Oryza sativa with 12 samples.

Results

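Leaves of the rice variety QJ10 (QJ below) under bicarbonate salt-alkali stress were compared with control leaves of the same variety. The stressed group, written N in the column headers, received 200 mmol/L per the series record, and the control group is CK. Each group had 3 libraries of total RNA, which the submitters call biological replicates, so 6 of the 12 libraries of the series enter here. The sources used here do not give plant age, length of treatment or pooling of plants. The genes described are all 4324 listed in the authors' table for this contrast, of 13674 listed over the 4 tables of the series, and every one of them had been selected by the authors as changed in these same 6 libraries. The variety follows the column headers, because the table's own name carries the other variety.

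Bicarbonate stress joins sodium with high pH. In alkaline soil iron and phosphate become poorly soluble, and in leaves salt-alkali treatments are known for lowering photosynthesis and for raising protective proteins of water deficit through abscisic acid. Leaves put much of their messenger RNA into a small number of genes for carbon fixation and light capture, next to which regulators such as zinc finger, AP2/ERF and calcium-binding proteins respond quickly to stress. The account below therefore starts from the most abundant genes and then goes through gene groups by role.

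Values are FPKM (fragments scaled to gene length and library size) as deposited, given per library or as mean ± SD (n = 3 libraries a group). Differences come from limma on log2(FPKM + 1), a scale that understates changes of low genes, and passed at an adjusted p under 0.05 (Benjamini-Hochberg over all tested genes), and folds are on that scale. Every gene said below to have risen or fallen passed, and among the 170 genes named by the rule for named genes the largest adjusted p was 0.000516. The test took in 3641 genes that reached 1 FPKM in 3 or more libraries, and 3629 passed, 99.7%, with 1846 higher (50.7%) and 1783 lower (49%), and the median log2 difference over all tested genes was 0.66. Counts of passing genes in any group must be read against these shares, which the authors' selection fixes, and such counts are no independent evidence of a response. Both the rule for named genes and the choice of abundant unnamed genes required groups that did not overlap, which 99.3% of tested genes met. Statements below that the groups of such genes were apart follow from that choice. The least changed listed gene had an authors' log2 fold change of 1.00 in size, and the largest adjusted p in the authors' deposited table was 0.0498. Depth is unknown, because the sources used here give no read totals. Replicates lay close together, with a median coefficient of variation of 1.53% in the controls and 2.26% under stress for genes of at least 300 FPKM, and 17.2% and 17.9% for genes at 1 to 3 FPKM. Nothing beyond the spread among these 6 libraries enters the p-values. FPKM ratios lay a median of 0.145 (log2) above the authors' fold changes, so rises are larger and falls smaller here by that amount. In bulk leaf RNA fewer cells of a type and less RNA per cell cannot be told apart. Of the leaf mesophyll markers, 3 of 8 names had values, at 333 to 3793 FPKM in the controls and 161 to 532 FPKM under stress. They are themselves photosynthesis genes, and the part of a change in cell makeup in the other results was not tested. Values of 3 meristem and inflorescence markers, of 7, were at most 0.1 FPKM in every library, and those of 4 anther markers, of 5, at most 0.92 FPKM in the controls. Of 4 markers of dividing cells 1 had values, histone H4 (Os10g0539500), at 257 to 278 FPKM under stress. It had no control value, so its change is not known.

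More of the abundant genes were lower than higher under stress. Genes were sorted by their mean over the 6 libraries, and among those at 1 to 30 FPKM between 53.4% and 55.4% of each class were higher under stress. At 100 to 300 FPKM the share was 35.2% (88 of 250 listed genes), and at 300 to 1000 FPKM it was 20.4% (23 of 113). Above 1000 FPKM 5 of 20 were higher. The listed genes together summed to 207635 to 209061 FPKM in the control libraries and 151565 to 152614 FPKM in the stressed libraries. The 2204 genes with a higher mean FPKM under stress summed to 26574 to 26779 FPKM in the controls and 95879 to 96336 FPKM under stress, whereas the 2120 with a lower mean summed to 180897 to 182487 FPKM and 55686 to 56278 FPKM. A small part of the list carried much of the change, as the 10 largest rises made up 24.5% of the summed rise and the 100 largest 56.2%, and the 10 largest falls made up 15.7% of the summed fall and the 100 largest 57.9%. By chromosome, between 46.7% and 54.3% of listed genes were higher.

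**Figure D1:**
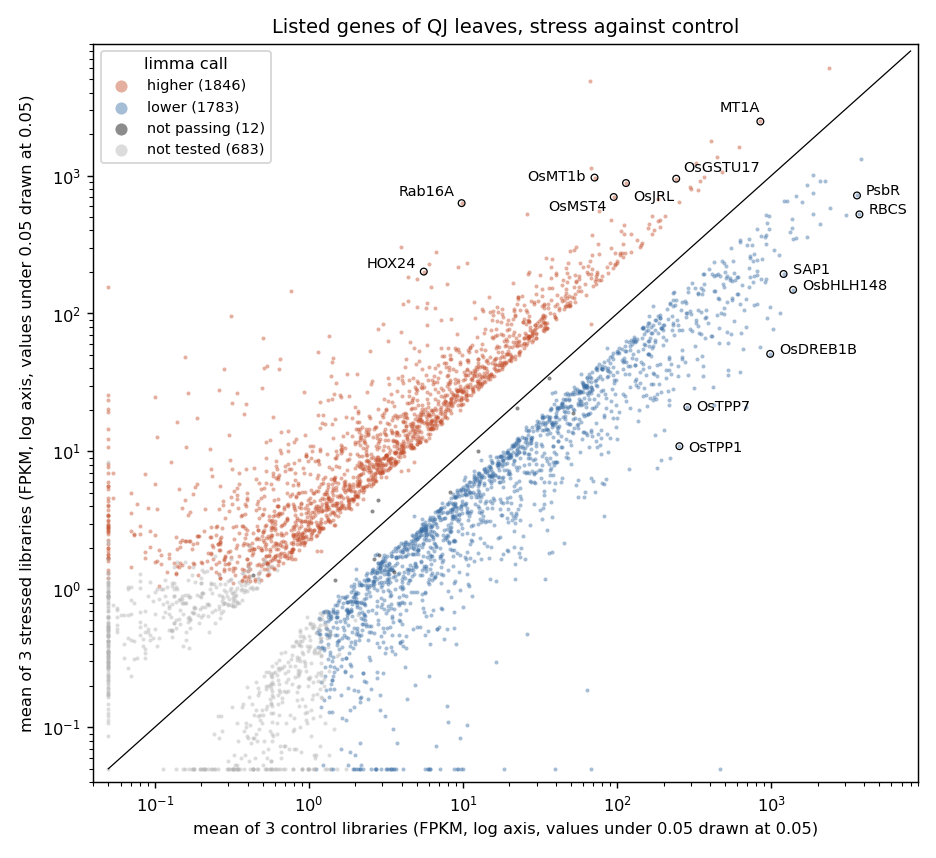
Mean FPKM of the 3 stressed libraries (vertical, log axis) against the mean of the 3 control libraries (horizontal, log axis) for the 4324 listed genes, coloured by limma call, with the line of equal levels. The 1846 higher and 1783 lower genes leave an empty band along that line because the table holds selected genes, and most points at the far right lie below it.

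A pair of genes without a name in the files had the largest rises in mean FPKM. Os01g0910900 was at 2357, 2386 and 2371 FPKM in the controls and 6099, 6032 and 6086 FPKM under stress. Os07g0142100 was at 73.2, 61.7 and 65.3 FPKM in the controls and 4836, 4877 and 4754 FPKM under stress, 71.4-fold higher. No stressed library of either overlapped a control, and by mean FPKM they were the most abundant listed genes under stress. Together they held 12.2% of the summed rise, and the files give no product for either. Another unnamed gene, Os01g0615050, has the locus number before that of the protease inhibitor gene OCPI2 and was at 654, 594 and 614 FPKM in the controls and 1634, 1687 and 1539 FPKM under stress. Overlap of the pair was not looked at. Among unnamed genes that fell, Os06g0133400 was at 3637, 3794 and 3971 FPKM in the controls and 1350.0, 1339 and 1263 FPKM under stress, and it had the highest control mean of all listed genes. Os03g0353400 fell from 2395 ± 21.1 to 579 ± 10.2 FPKM and Os05g0119300 from 2220.2 ± 31.7 to 912 ± 21 FPKM. Of the 4324 listed genes 2472 carried no name.

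Among named genes MT1A had the largest rise in mean FPKM, and OSJNBb0035K09.20, described below, had the next largest. MT1A (Os11g0704500), a metallothionein, which is a small cysteine-rich protein that binds metal ions, was at 832, 849 and 864 FPKM in the controls and 2459, 2457 and 2485 FPKM under stress, a difference of 1.54 on the log2 scale (SE 0.0187). OsMT1b (Os03g0288000), another metallothionein, was at 71.5, 70.6 and 71.6 FPKM in the controls and 985, 986 and 929 FPKM under stress, a difference of 3.74 on the log2 scale (SE 0.0299). All 3 stressed libraries lay above all 3 controls in both genes, as groups did not overlap in 99.3% of tested genes. The remaining listed metallothioneins were OsMT1a (Os12g0570700), which rose from 96.1 ± 5.35 to 224 ± 1.24 FPKM, and OsMT4 (Os10g0542100), listed at 0 in every control and at 4.46 to 6.9 FPKM under stress. All 4 tested members thus rose, with a median of 2.12, and their sum went from 1016 ± 12.4 to 3663 ± 16.3 FPKM.

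Inhibitors of proteases rose as a second abundant class. OCPI2 (Os01g0615100), of the chymotrypsin inhibitor family, was at 336, 326 and 314 FPKM in the controls and 1240.3, 1239 and 1199 FPKM under stress, 3.76-fold higher. RBBI3-1 (Os01g0124200), a Bowman-Birk inhibitor, which blocks serine proteases, was at 345, 345 and 347 FPKM in the controls and 886, 891 and 943 FPKM under stress, and its near neighbour in numbering RBBI3-2 (Os01g0124100) rose from 54.2 ± 2.33 to 168 ± 0.85 FPKM. All 4 listed inhibitors rose, with a median of 1.76. The cysteine protease gene ocp* (Os04g0650000) rose as well, from 303 ± 2.69 to 806 ± 11.7 FPKM. It set the direction of the summed protease level, since the other 19 listed proteases together went from 82.3 to 57.8 FPKM and 9 of 13 tested members fell. Reads of near-identical copies could have been shared between such family members, and the sources used here do not say how the authors counted them.

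The other abundant risers belonged to different families. OsAsr2 (Os01g0963600), an abscisic acid, stress and ripening protein, was at 436, 440.4 and 458 FPKM in the controls and 1360.2, 1358 and 1379.6 FPKM under stress. OsJRL (Os01g0348900), a jacalin-related lectin, which binds sugars, was at 114, 110.2 and 118 FPKM in the controls and 895, 869.7 and 884 FPKM under stress, 7.69-fold higher. OsGSTU17 (Os09g0467200), a glutathione S-transferase of the tau class, which couples glutathione to reactive compounds, was at 243, 239 and 242 FPKM in the controls and 951, 949 and 947 FPKM under stress. The groups of these 3 genes did not overlap. GLYI-11 (Os08g0191700), of the glyoxalase I family that removes methylglyoxal, rose from 332 ± 4.08 to 790.0 ± 10.2 FPKM. The thaumatin-like defence protein OsPR5 (Os12g0628600) rose from 364 ± 13.5 to 975 ± 22.2 FPKM, the O-methyltransferase OsOMT26 (Os08g0498100) from 299 ± 8.32 to 826 ± 2.46 FPKM, and OSJNBb0035K09.20 (Os06g0586000), known here by a clone name alone, from 405 ± 11.5 to 1789 ± 41.1 FPKM. The dehydrin gene Rab16A (Os11g0454300) had the largest fold among these leading genes, from 9.79 ± 1.13 to 631 ± 28.3 FPKM, 58.8-fold.

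**Figure D2:**
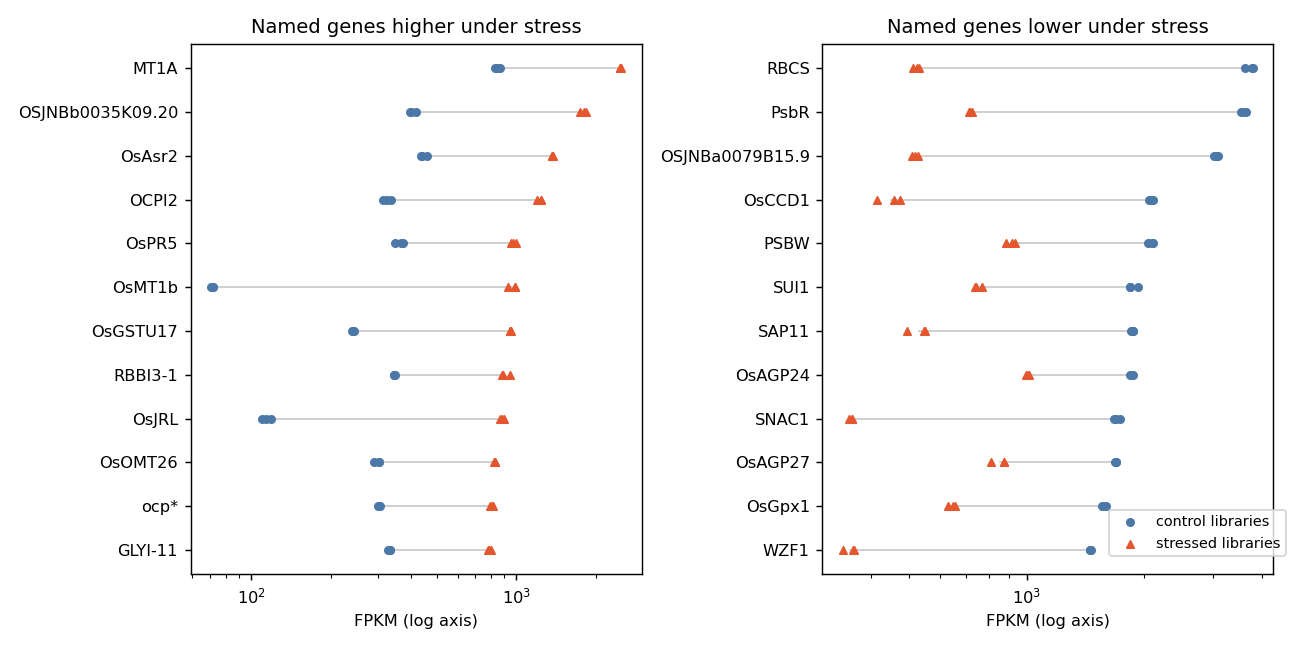
FPKM in each library (log axis) of the 12 named genes highest under stress among those that rose and the 12 named genes highest in the controls among those that fell, with circles for the 3 controls, triangles for the 3 stressed libraries and a line joining the group means. The choice of genes required groups that did not overlap, so in each of the 24 genes the 2 sets of 3 points are separate. MT1A stands at 2457 to 2485 FPKM under stress and RBCS at 514 to 532 FPKM.

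RBCS and PsbR, both of photosynthesis, had the largest falls in mean FPKM among named genes. RBCS (Os12g0274700), which codes for a small subunit of Rubisco, the enzyme that fixes carbon dioxide, was at 3773, 3616 and 3793 FPKM in the controls and 532, 514 and 524 FPKM under stress, 7.11-fold lower. PsbR (Os07g0147500), a subunit of photosystem II, was at 3632, 3623 and 3526 FPKM in the controls and 716, 725 and 712 FPKM under stress, 5-fold lower. PSBW (Os01g0773700), another small subunit of that photosystem, was at 2050.3, 2088 and 2101 FPKM in the controls and 916, 885 and 935 FPKM under stress, 2.28-fold lower. No stressed library reached any control in these 3 genes. Of the other Rubisco copies, RbcS5 (Os12g0291400) fell from 1437 ± 69.2 to 713 ± 17.9 FPKM and RBCS (Os12g0292400) from 364 ± 26.9 to 165 ± 3.14 FPKM, and RbcS1 (Os02g0152400) was too low to test, at 1.13 ± 0.206 FPKM under stress. As near-identical copies these genes may share reads that the counting may have split in an unknown way. Of 21 light-harvesting, photosystem and electron carrier genes 20 fell and 0 rose, with a median of -1.48, and their sum went from 12113 ± 31.9 to 4046 ± 77.2 FPKM. The member that did not pass, OsPsbR2 (Os07g0147550), was at 36.1 FPKM in the controls and 34.1 FPKM under stress, while the authors' deposited table gives it a log2 fold change of -1.54. Its locus number follows that of PsbR, and shared reads or overlap of the 2 genes were not looked at.

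Chlorophyll genes moved in both directions, with 5 of 9 higher and 4 lower. HEMA1 (Os10g0502400), which acts at the start of chlorophyll synthesis, fell from 147 ± 3.3 to 78.9 ± 2.79 FPKM, and OsPAO (Os03g0146400), of chlorophyll breakdown, rose from 52.1 ± 1.33 to 129 ± 1.49 FPKM. Of 10 tested carbonic anhydrase and malate genes 6 rose and 4 fell, with a median of 1.52. The most abundant, the carbonic anhydrase BETACA1 (Os01g0639900), which interconverts carbon dioxide and bicarbonate, fell from 449.7 ± 5.95 to 193 ± 2.73 FPKM. Of the other carbonic anhydrases OsalphaCA6 (Os08g0470200) rose from 12.4 ± 0.703 to 43.7 ± 0.675 FPKM. OsalphaCA2 (Os04g0412500) fell from 9.38 ± 0.638 to 3.51 ± 0.275 FPKM. The kinases of phosphoenolpyruvate carboxylase moved apart, OsPPCK2 (Os02g0625300) rising from 72.4 ± 1.87 to 186 ± 7.92 FPKM and OsPPCK1 (Os02g0807000) falling from 174 ± 3.92 to 36.2 ± 3.2 FPKM. Nuclear genes were not alone, as the plastid-encoded psbC (gene-psbC) also fell, from 26.3 ± 0.437 to 14.1 ± 0.968 FPKM.

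Other abundant fallers had various roles. OsCCD1 (Os06g0683400), a small calcium-binding protein, was at 2102, 2057 and 2082 FPKM in the controls and 476, 458 and 414 FPKM under stress. SAP11 (Os08g0504700) and SAP1 (Os09g0486500) are stress-associated proteins with A20 and AN1 zinc fingers. SAP11 was at 1877, 1851 and 1872 FPKM in the controls and 494, 549.6 and 546 FPKM under stress, and SAP1 was at 1205, 1199 and 1196 FPKM in the controls and 190.3, 195 and 195 FPKM under stress, 6.18-fold lower. WZF1 (Os03g0764100), a zinc finger protein, was at 1451, 1451 and 1463 FPKM in the controls and 361, 339 and 362 FPKM under stress. OsbHLH148 (Os03g0741100), a bHLH factor linked to jasmonate in rice, was at 1431, 1363 and 1357 FPKM in the controls and 156, 144 and 145 FPKM under stress, 9.27-fold lower. In all 5 genes the controls were high and the groups did not overlap. The translation initiation factor SUI1 (Os05g0498400) fell from 1867 ± 55.6 to 750.0 ± 15.8 FPKM, the glutathione peroxidase OsGpx1 (Os04g0556300) from 1576 ± 22.7 to 645 ± 13.4 FPKM, and OSJNBa0079B15.9 (Os03g0766800), known here by a clone name alone, from 3053 ± 29 to 519 ± 9.91 FPKM.

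Transcription factors were split, and the most abundant members of several families fell. In the AP2/ERF and DREB families 26 of 39 tested factors fell and 13 rose, and the sum of the list went from 5008 ± 18.5 to 1418 ± 16.2 FPKM. OsDREB1B (Os09g0522000), a DREB1 factor of the cold response, was at 995, 971 and 982 FPKM in the controls and 46.5, 52.8 and 53.5 FPKM under stress, 19-fold lower, OsERF#074 (Os05g0497300) fell from 764 ± 16.7 to 240.4 ± 10.8 FPKM, and OsERF#076 (Os04g0669200) from 577 ± 7.01 to 175 ± 5.9 FPKM. Zinc finger and SAP factors had 9 rises and 18 falls in 27, with the sum going from 7849.7 ± 47.9 to 2383 ± 48.7 FPKM. WRKY factors had 13 rises and 19 falls in 32, and the most abundant, WRKY71 (Os02g0181300), fell from 921 ± 7.25 to 319 ± 7.32 FPKM. Both GRAS factors named for chitin and gibberellin induction fell, CIGR2 (Os07g0583600) from 805 ± 2.46 to 117 ± 1.4 FPKM and CIGR1 (Os07g0545800) from 361 ± 7.21 to 41.7 ± 1.05 FPKM. MYB factors had 10 rises and 7 falls in 17, yet the most abundant fell, OsMYB48 (Os01g0975300) from 542 ± 18.3 to 174 ± 1.67 FPKM and OsMyb4 (Os04g0517100) from 432 ± 4.7 to 145 ± 3.91 FPKM.

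The remaining families held strong rises as well as falls. HOX24 (Os02g0649300) was at 4.79, 6.38 and 5.51 FPKM in the controls and 202, 201 and 201 FPKM under stress, 31-fold higher, and HOX22 (Os04g0541700) at 15.3, 18.1 and 16.7 FPKM in the controls and 116, 111 and 109 FPKM under stress, 6.41-fold higher. Both belong to the class whose rice members respond to water deficit and abscisic acid. Of 10 tested homeobox factors 5 rose and 5 fell. Among bZIP factors 10 of 13 rose and 3 fell, with BZIP23 (Os02g0766700), an abscisic acid signalling factor, rising from 25.4 ± 0.767 to 84.2 ± 1.17 FPKM. The NAC family was nearly even, at 15 rises and 13 falls in 28, and its sum went from 2766 ± 31.4 to 1301 ± 6.14 FPKM. Without SNAC1 the sum of the family went from 1065 to 945 FPKM. Its most abundant member, SNAC1 (Os03g0815100), a stress-responsive NAC factor, was at 1735, 1691 and 1678 FPKM in the controls and 357, 357 and 352 FPKM under stress, 4.77-fold lower, while ONAC103 (Os07g0683200) rose from 75.9 ± 2.73 to 269 ± 1.95 FPKM.

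The most abundant signalling genes fell. Calcium sensors and kinases had 13 rises and 15 falls in 28, but their sum fell, from 4935 ± 22.1 to 1606 ± 36.8 FPKM. The calmodulin-like OsCML15 (Os05g0380900) fell from 852 ± 9.19 to 177 ± 8.11 FPKM and OsCML31 (Os01g0955100) from 726 ± 14 to 185 ± 14.6 FPKM. Of 4 MAP kinase cascade genes 3 fell and 1 rose. OsMSRMK2 (Os03g0285800), a MAP kinase, was at 597, 608 and 604 FPKM in the controls and 136, 142 and 136 FPKM under stress, and the kinase gene OsNPK1-PK (Os01g0699600) was at 359.6, 354 and 362 FPKM in the controls and 35.1, 34.8 and 36.5 FPKM under stress, 9.85-fold lower. The groups were far apart in both. Wall-associated and receptor-like cytoplasmic kinases were even, at 25 rises and 24 falls in 50.

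Ubiquitin ligase genes moved both ways. U-box and RING ligases, which pick proteins for degradation, had 12 rises and 20 falls in 32, a median of -1.45, and a sum that went from 2982 ± 7.3 to 984 ± 10.7 FPKM. OsRZFP34 (Os01g0719100) fell from 860.4 ± 6.8 to 362 ± 1.7 FPKM, OsRING-1 (Os02g0759400) from 409 ± 5.87 to 69 ± 0.465 FPKM and OsRFP (Os03g0302200) from 261 ± 2.65 to 76 ± 2.73 FPKM. The files give the name EL5 to 6 genes with locus numbers close to each other, which all fell and may share reads, the highest being EL5 (Os02g0561000), from 60.2 ± 2.27 to 18.5 ± 2.26 FPKM. F-box proteins had 19 rises and 10 falls in 29, with a median of 0.90. The most abundant one, OsFbox109 (Os02g0748300), fell from 336 ± 14.8 to 141 ± 4.94 FPKM. No test compared both ligase types.

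Amino acid metabolism rose on the side of the aromatic amino acids. The shikimate pathway makes chorismate in plastids, from which tryptophan, phenylalanine and tyrosine are built. The list holds genes of this route and its tryptophan branch, chorismate mutase, and tryptophan decarboxylase genes, whose products use tryptophan. All 11 listed genes rose, with a median of 1.68, and the sum went from 349.9 ± 9.84 to 1181 ± 3.81 FPKM. This list was drawn up after values were seen, so its uniform direction is a description alone. OsDAHP1 (Os07g0622200), of the entry step, was at 113, 108 and 110.3 FPKM in the controls and 373, 373 and 383 FPKM under stress, and OsDAHPS1 (Os03g0389700), of the same step, rose from 22.6 ± 0.297 to 132 ± 2.91 FPKM. EPSPS (Os06g0133900), a later step, was at 59.4, 55.4 and 54.7 FPKM in the controls and 186, 189.8 and 183 FPKM under stress. Chorismate mutase CM (Os01g0764400), which leads to phenylalanine and tyrosine, rose from 33.2 ± 1.62 to 97.9 ± 1.41 FPKM. On the tryptophan branch IGPS (Os09g0255400) rose from 33.6 ± 2.05 to 109.7 ± 2.17 FPKM and the tryptophan synthase gene OsTSA (Os07g0182100) from 45.8 ± 1.68 to 134 ± 5.33 FPKM. Tryptophan decarboxylase genes stayed low, the higher of them, TDC1 (Os08g0140300), going from 0.723 ± 0.0924 to 5.9 ± 0.866 FPKM.

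Genes of amino acid breakdown rose too. In a second list drawn up after values were seen, all 7 tested genes rose and 1 more, OsGDH3 (Os02g0650900), was too low to test, at 0.913 ± 0.17 FPKM under stress. The asparaginase OsASNase2 (Os04g0650700) was at 58.9, 56.4 and 56.9 FPKM in the controls and 235, 230.2 and 235 FPKM under stress. The lysine-degrading OsLKR (Os02g0783700) was at 66.4, 64 and 64.1 FPKM in the controls and 214, 225 and 223 FPKM under stress. The arginase OsARG (Os04g0106300), ornithine aminotransferase OsOAT (Os03g0643300) and proline dehydrogenase OsProDH (Os10g0550900) rose from 20.6 ± 1.12 to 57 ± 1.86 FPKM, from 18 ± 1.45 to 52.7 ± 0.465 FPKM and from 17.8 ± 1.49 to 42.2 ± 3.33 FPKM. GABA transaminase, OsGABA-T (Os02g0112900), rose from 5.8 ± 1.12 to 59.4 ± 1.28 FPKM, 8.97-fold. Among 31 nitrogen assimilation and transport genes 18 rose and 13 fell, and the 3 most abundant fell. They were the amino acid permease OsAAP11B (Os12g0181600), from 301 ± 6 to 98.6 ± 3.27 FPKM, the glutamine synthetase OsGLN2 (Os04g0659100), from 238 ± 2.91 to 116 ± 2.67 FPKM, and OsANT4 (Os04g0565500), from 199 ± 2.09 to 68 ± 1.24 FPKM.

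**Figure D3:**
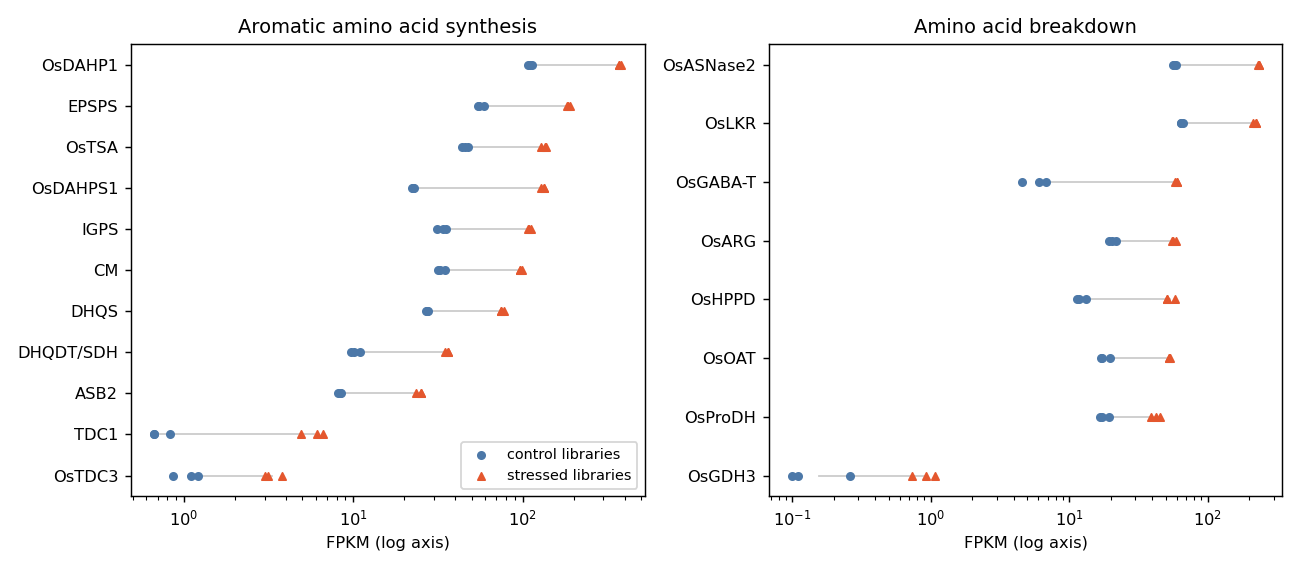
FPKM in each library (log axis) of the 11 genes in the list of aromatic amino acid synthesis and the 8 genes of amino acid breakdown, with circles for the 3 controls, triangles for the 3 stressed libraries and lines between group means. The first list also holds tryptophan decarboxylase genes. In each gene the triangles lie to the right of the circles, for OsDAHP1 at 373 to 383 FPKM against 108 to 113 FPKM.

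Most genes of sugar transport and starch rose. Of 23 tested genes of sucrose, starch and sugar transport 19 rose and 4 fell, with a median of 1.55. OsMST4 (Os03g0218400), a monosaccharide transporter, was at 92.2, 96.2 and 96.3 FPKM in the controls and 713, 691 and 693 FPKM under stress, 7.3-fold higher. Without it the sum of the other members went from 992 to 939 FPKM, so the higher sum of the list rested on that gene. Among genes that act in starch synthesis, the large and small subunits of ADP-glucose pyrophosphorylase rose, OsAGPL3 (Os05g0580000) from 5.42 ± 0.511 to 39.5 ± 0.885 FPKM and OsAGPS1 (Os09g0298200) from 4.58 ± 0.473 to 15.3 ± 0.528 FPKM, as did the plastid glucose-6-phosphate translocator OsGPT2 (Os07g0523600), from 29.8 ± 1.74 to 139 ± 0.488 FPKM. The beta-amylase OsBamy2 (Os03g0141200), of starch breakdown, rose as well, from 56.2 ± 1.58 to 177 ± 6.79 FPKM. These 4 were chosen after their values were seen. The neutral invertase OsNIN2 (Os01g0332100) fell from 466 ± 4.53 to 187 ± 1.56 FPKM and the transporter OsMST6 (Os07g0559700) from 320.1 ± 2.05 to 153 ± 4.18 FPKM. In trehalose metabolism 3 of 5 genes rose and 2 fell. Of the trehalose-6-phosphate phosphatases, OsTPP7 (Os09g0369400) fell from 285 ± 7.82 to 21 ± 1.2 FPKM and OsTPP1 (Os02g0661100) from 253 ± 2.14 to 10.9 ± 1.08 FPKM, while OsTPP9 (Os03g0386500) rose from 2.04 ± 0.206 to 16.3 ± 0.33 FPKM and OsTPP2 (Os10g0553300) from 2.12 ± 0.266 to 13.9 ± 0.992 FPKM. The trehalase gene OsTRE (Os10g0521000), whose product splits trehalose, rose from 4.03 ± 0.161 to 32.9 ± 0.943 FPKM.

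Antioxidant genes fell in their most abundant members. Of 14 antioxidant genes 6 rose and 8 fell. Among the glutaredoxins, small thiol oxidoreductases, GRX6 (Os01g0667900) fell from 903 ± 14.3 to 171 ± 2.39 FPKM, and OsGRX17 (Os05g0563900) from 556 ± 5.93 to 125 ± 2.28 FPKM. Of 15 glutathione S-transferases 9 fell and 6 rose. Their sum rose from 447 ± 3.08 to 1078 ± 6.76 FPKM, but without OsGSTU17 it went from 206 to 129 FPKM. All 3 alternative oxidases, which let mitochondrial electrons bypass the phosphorylating chain, rose, the highest being AOX1A (Os04g0600200), from 16.3 ± 1.01 to 38.2 ± 0.581 FPKM. Of 24 chaperone and heat shock genes 10 rose and 13 fell, and the J-domain genes OsDjC56 (Os06g0650900) fell from 1353 ± 3.66 to 485 ± 14.5 FPKM and OsDjA5 (Os03g0787300) from 627 ± 11.4 to 329.8 ± 7.83 FPKM.

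Hormone genes moved both ways. Jasmonate genes had 12 rises and 9 falls in 21, while OsJAZ4 (Os03g0181100), a repressor of jasmonate signalling, was at 787, 759 and 766 FPKM in the controls and 120.3, 112 and 115 FPKM under stress, 6.62-fold lower. The lipoxygenase OsLOX11 (Os12g0559200) rose from 140.4 ± 2.42 to 305 ± 2.7 FPKM. Auxin genes had 6 rises and 16 falls in 22, with OsIAA17 (Os05g0230700), an auxin-response repressor, falling from 306 ± 5.08 to 168 ± 0.644 FPKM. Among 14 protein phosphatases 2C, a family that holds negative regulators of abscisic acid signalling, 11 rose and 3 fell. OsPP2C06/OsABI2 (Os01g0583100) rose from 22.4 ± 0.911 to 116 ± 6.02 FPKM and the most abundant, OsPP2C32 (Os03g0292100), fell from 448 ± 3.53 to 129 ± 2.04 FPKM.

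Among remaining lists, LEA proteins and dehydrins, which protect cells against water loss, had 21 rises and 1 fall in 22. The gene that fell, LEA8 (Os05g0584200), was the most abundant of them, from 690.0 ± 5.28 to 312 ± 6.61 FPKM. The 21 rises include wsi76 (Os07g0687900), from 37.9 ± 0.469 to 246 ± 7.56 FPKM. It was matched by name, its product was not checked and its membership is uncertain. Of 24 class III peroxidases 18 fell and 6 rose, with prx29 (Os02g0240300) falling from 263 ± 8.55 to 48.1 ± 2.64 FPKM. The basic helix-loop-helix factors had 10 rises and 13 falls in 23. Of the clock genes LHY (Os04g0583900) rose from 5.06 ± 0.306 to 31.3 ± 1.04 FPKM and OsPRR95 (Os09g0532400) fell from 108 ± 2.38 to 55.6 ± 1.52 FPKM. Cytokinin, gibberellin and brassinosteroid genes had 5 rises and 8 falls in 13, and BZR1 (Os07g0580500), a brassinosteroid-response factor, fell from 67.7 ± 1.81 to 29.2 ± 1.06 FPKM. UDP-glycosyltransferases had 7 rises and 2 falls in 9, with OsUGT74H4 (Os09g0518000) rising from 33.7 ± 2.67 to 118 ± 5.44 FPKM.

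At the cell surface, arabinogalactan proteins, heavily glycosylated wall proteins, had 5 rises and 11 falls in 16. OsAGP24 (Os06g0318800) was at 1873, 1847 and 1834 FPKM in the controls and 1007, 1016 and 999 FPKM under stress, and OsAGP27 (Os07g0573900) fell from 1691 ± 4.31 to 855 ± 36.9 FPKM. Expansins, xyloglucan enzymes and cellulose synthases had 3 rises and 16 falls in 19, among them OsXTH17 (Os08g0237000), from 147 ± 7.19 to 42.9 ± 2.4 FPKM, and OsCesA3 (Os07g0424400), from 64.3 ± 2.16 to 32.6 ± 2.04 FPKM. Secondary wall markers were low, at most 4.95 FPKM in the controls and 2.14 FPKM under stress. Lipid transfer proteins, which carry lipids to the surface, had 11 rises and 3 falls in 14, with OsLTP2.12 (Os10g0505700) at 69.5, 64.2 and 70.8 FPKM in the controls and 363, 347 and 405 FPKM under stress. The wax synthesis genes OsGL1A (Os08g0549000) and OsCER1 (Os02g0621300) rose from 26.6 ± 1.19 to 88.1 ± 1.56 FPKM and from 9.48 ± 1.26 to 52.6 ± 0.829 FPKM, although the wider list of lipases, fatty acid and wax genes had 8 rises and 18 falls in 26.

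Export and secretion genes went in opposite directions in 2 lists drawn up after values were seen. ABC transporters had 18 rises and 2 falls in 20, with OsPDR9 (Os01g0609300) at 29.8, 29.1 and 29.9 FPKM in the controls and 160.2, 163 and 155 FPKM under stress and ABCG43 (Os07g0522500) rising from 29 ± 0.753 to 117 ± 3.11 FPKM. EXO70 proteins, subunits of the exocyst that tethers secretory vesicles, had 6 falls in 6 tested genes. OsEXO70FX4 (Os08g0232700) was at 174, 176 and 175 FPKM in the controls and 13.1, 12.9 and 13.2 FPKM under stress, 12.5-fold lower, and OsEXO70FX15 (Os01g0905200) fell from 81.5 ± 1.59 to 3.41 ± 0.503 FPKM. VQ-motif proteins, partners of WRKY factors, had 5 rises and 8 falls in 13, and OsVQ13 (Os03g0676400) fell from 371 ± 4.46 to 67 ± 0.605 FPKM. Their list and the next were also drawn up after values were seen. Plantacyanins, which are blue copper proteins, and early nodulin-like proteins had 3 rises and 7 falls in 10. Among them OsUCL29 (Os08g0482600) fell from 683 ± 18.5 to 80.1 ± 2.15 FPKM and OsUCL33 (Os09g0572700) rose from 53.7 ± 3.11 to 303 ± 11.3 FPKM.

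Defence genes rose in most cases. Of 27 chitinase, glucanase and pathogenesis-related genes 25 rose and 2 fell, and the sum went from 906 ± 21 to 2859 ± 34.4 FPKM. OsPR4c (Os11g0592000), of the PR4 family, was at 46.1, 55.2 and 47.8 FPKM in the controls and 287, 277 and 284 FPKM under stress. Diterpenoid genes, which make rice phytoalexins, had 18 rises and 2 falls in 20, from low control levels such as OsCPS4 (Os04g0178300), from 3.76 ± 0.323 to 33.9 ± 2.51 FPKM. In phenylpropanoid synthesis 16 rose and 6 fell in 22. Its most abundant gene went the other way, as OsPAL (Os02g0626100), a phenylalanine ammonia-lyase, fell from 927 ± 125 to 516 ± 57.3 FPKM, and a second copy, OsPAL (Os02g0626400), rose from 107 ± 4.08 to 276 ± 5.97 FPKM. The 2 copies have nearby locus numbers and may share reads. Germin-like and oxalate oxidase genes had 5 rises and 9 falls in 14, and the oxalate oxidase Osoxo4 (Os03g0694000) rose from 15.6 ± 1.6 to 104 ± 2.59 FPKM.

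Genes linked to metal, phosphate and water transport also changed. Iron and metal genes had 12 rises and 4 falls in 16, a median of 2.23. OsNRAMP1 (Os07g0258400), a metal transporter, was at 5.17, 5.15 and 4.71 FPKM in the controls and 172, 180.1 and 182 FPKM under stress, 29.8-fold higher, and OsIRO2 (Os01g0952800), a factor of the iron deficiency response, was at 5.99, 5.57 and 5.81 FPKM in the controls and 108, 108 and 112 FPKM under stress, 16.3-fold higher. Every stressed library was far above every control in both. Of 25 phosphate starvation genes 20 rose and 5 fell. The list was matched by name. Its member PAP2 (Os09g0133600), whose product was not checked and whose membership is uncertain, rose from 158 ± 2.19 to 414 ± 8.29 FPKM. The phosphate transporter PT1 (Os03g0150600), the most abundant of the list, fell from 499 ± 4.3 to 198 ± 3.4 FPKM. Of 6 aquaporins 5 rose and 1 fell, OsPIP1 (Os02g0823100) rising from 11.9 ± 0.848 to 92 ± 2.25 FPKM and OsTIP2 (Os06g0336200) falling from 94.8 ± 4.97 to 32.8 ± 1.96 FPKM. Ion transporters had 12 rises and 5 falls in 17 at low levels, led by the potassium transporter OsHAK27 (Os03g0574900), from 9.58 ± 0.594 to 43.4 ± 0.672 FPKM. Of 5 root markers 2 had control values, RCc2 at no more than 0.18 FPKM and LSI1 (Os02g0745100), a silicon channel, at 2.97 to 3.3 FPKM in the controls and 8.48 to 9.82 FPKM under stress. Their part in the uptake genes was not tested.

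**Figure D4:**
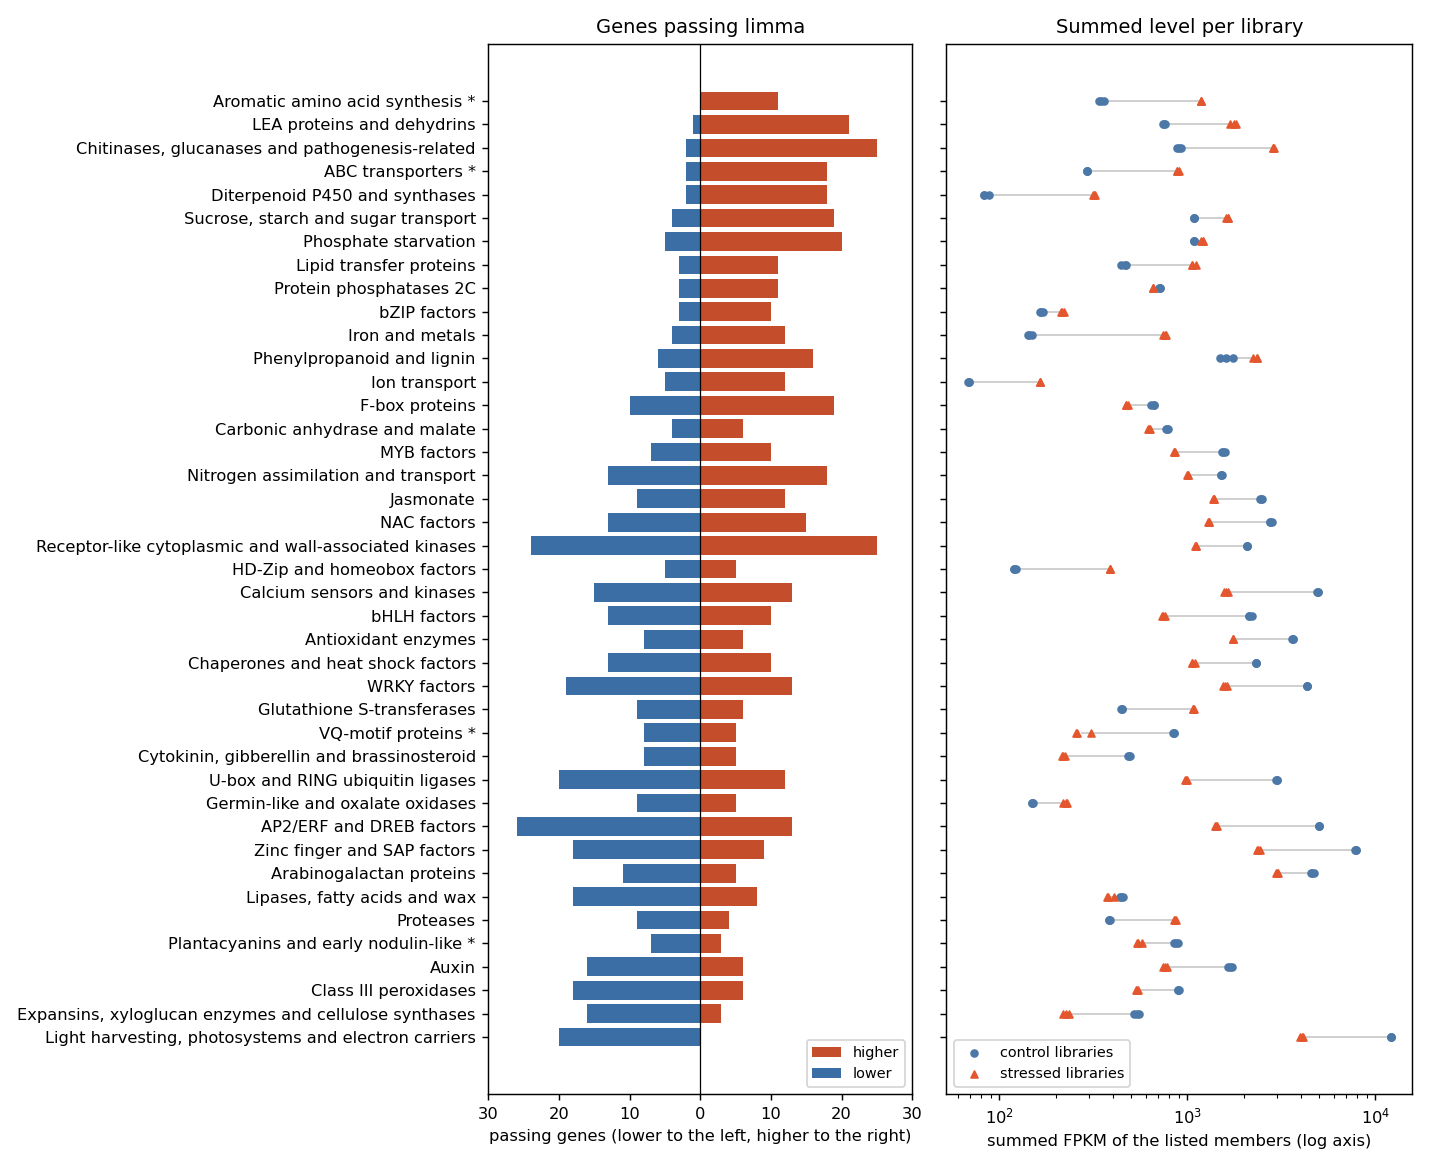
For each gene list with at least 10 tested members, the number of genes passing limma as higher (right) and lower (left) under stress, and beside it the summed FPKM of all listed members in each library (log axis, circles for the 3 controls and triangles for the 3 stressed libraries). Asterisks mark lists drawn up after values were seen. NAC factors (15 of 28 higher) and MYB factors (10 of 17) had lower sums under stress, and 50.7% of all tested genes were higher. Without the most abundant member the log2 ratio of the sums went from -1.09 to -0.17 for NAC factors and from -0.87 to -0.58 for MYB factors.

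Some genes were listed at 0 in all 3 libraries of 1 group. They were 103 genes in the controls and 65 under stress, and 11 and 14 of them averaged 5 FPKM or more in the other group. The highest was Os01g0952900, at 471, 452 and 474 FPKM in the controls and listed at 0 in each stressed library. In the other direction Os04g0121800 was listed at 0 in each control and stood at 153, 151 and 164 FPKM under stress. The locus number of Os01g0952900 follows that of OsIRO2, which rose, and overlap of the 2 genes was not looked at. Levels near 0 also went with variety. With low taken as at most 0.1 FPKM and high as at least 5 FPKM in every library of a group, limits chosen after values were seen, 36 genes of the 4 tables were high in both QJ groups and low in both LJ groups, LJ being the second variety (LJ31) of the series. Another 11 were high in the QJ controls and low in both the stressed QJ libraries and the LJ controls, with no LJ stress value. They include qCTR12 (Os12g0550600), at 65.4, 68.1 and 68.3 FPKM in the controls, and Os12g0425800, at 39.2, 40.2 and 38.6 FPKM, both listed at 0 under stress. Whether the plants of the QJ groups also differed in genotype was not tested.

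The LJ libraries, from the same tissue, treatment and salt level, show where these changes were shared. Of the 4324 genes listed for QJ 2338 were also listed for LJ stress, 54.1% of the QJ list and 32.6% of the 7178 genes of the LJ list. In the authors' deposited tables, of 1359 shared genes higher in QJ 1291 were higher and 68 lower in LJ, and of 979 lower in QJ 862 were lower and 117 higher in LJ. Of 153 passing genes that fell from at least 300 FPKM 43 were in the LJ stress table, 37 of them lower, whereas of 46 that rose to at least 300 FPKM 35 were, all 35 higher. Another 90 of the fallers were listed in the table of stressed QJ against stressed LJ, which shares the stressed QJ libraries, and had no LJ control value, and in all 90 the stressed LJ mean was above the stressed QJ mean, by a median ratio of 4.05. Those 90 genes were selected by the authors for a difference between the stressed varieties, and no test bears on their LJ response.

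Photosynthesis genes were lower in both varieties. All 18 light-harvesting and photosystem genes listed for both were lower in both of the authors' deposited tables, and for PsaK (Os07g0148900) the stressed mean was 259 ± 9.01 FPKM in QJ and 114 ± 1.56 FPKM in LJ. SAP1 stood at 193 ± 2.73 FPKM in stressed QJ and 588 ± 3.66 FPKM in stressed LJ. Neither SAP1 nor the next 3 regulators had an LJ control value, so the size of their LJ response is not known. None of them was in the LJ stress table. By its values that table holds only genes with an authors' log2 fold of 1 or more in size and adjusted p under 0.05. OsDREB1B stood at 50.9 ± 3.85 and 432 ± 15.6 FPKM, OsbHLH148 at 148 ± 6.87 and 1350.1 ± 30.1 FPKM, and CIGR2 at 117 ± 1.4 and 578 ± 3.49 FPKM. For OsbHLH148 the QJ control mean was 1384 ± 41.1 FPKM. A further 13 abundant fallers outside the LJ stress table had values in both LJ groups, and in 10 of them the stressed LJ mean was the lower. WRKY71 went from 1861 ± 37.6 to 1185 ± 11.9 FPKM in LJ, OsJAZ4 from 1422 ± 28.5 to 982 ± 29.9 FPKM and the GRAS factor CIGR1 from 1502 ± 10 to 723 ± 7.37 FPKM, whereas OsMSRMK2 went from 1304 ± 15.3 to 1385 ± 14.3 FPKM. OsDREB1A (Os09g0522200), a relative of OsDREB1B, was listed as lower in LJ as well, from 537 ± 6.3 to 173 ± 2.16 FPKM. Absence from the LJ stress table therefore does not show that a gene was unchanged in LJ. Of the 11 aromatic amino acid genes 7 were listed for LJ, all of them higher there as well.

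The difference of the responses, QJ minus LJ, was tested by limma over 5170 genes with values in all 12 libraries, of which 3431 passed (66.4%, with 41.4% more positive in QJ and 25% in LJ), and over those listed for QJ 1928 of 2746 did (70.2%). Of the 26 genes chosen for abundance or size of change 14 had all 12 values, and all 14 passed, 6 with a response more positive in QJ and 8 with one more positive in LJ. FPKM ratios lay 0.145 above the authors' log2 fold changes in QJ and -0.142 from them in LJ. Over all genes 2140 differences were more positive in QJ and 1291 in LJ, and after rescaling to the authors' fold changes these were 1593 and 1696. RBBI3-1 turned from 0.16 to -0.13 with that rescaling, and OsPR5 (Os12g0628600) went from 0.38 to 0.09 and no longer passed. OsMT1b went from 34.2 ± 3.57 to 5625 ± 61.9 FPKM in LJ, a difference of responses of -3.58 on the log2 scale (SE 0.0784). OCPI2 and OsJRL also rose more in LJ, to 5034 ± 68.5 and 4642 ± 25.9 FPKM. OsAsr2 rose more in QJ, LJ going from 325 ± 10.9 to 636 ± 12.8 FPKM. RBCS and PSBW fell less in QJ on the log2 scale, LJ going from 1284 ± 22 to 88.8 ± 3.66 FPKM and from 2207 ± 34.8 to 437 ± 13.3 FPKM. In FPKM the fall of RBCS was the larger in QJ, from 3727 ± 97.1 to 523 ± 8.9 FPKM. Another photosystem gene, PsbR, fell more in QJ on the log2 scale, LJ going from 1083 ± 19.5 to 344 ± 11.7 FPKM. Its difference of responses was -0.67 on that scale (SE 0.0331). The genes tested were themselves preselected, and which variety is which rests on the column headers.

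**Figure D5:**
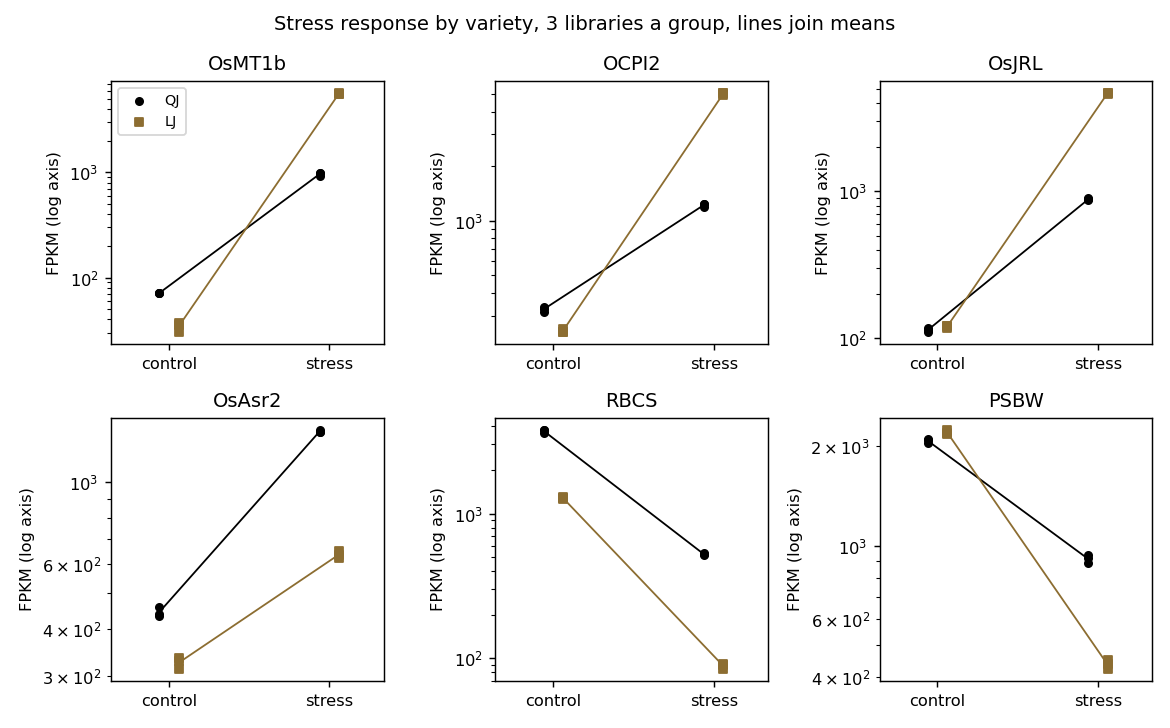
FPKM in each library (log axis) of 6 genes whose stress response differed between QJ (circles) and LJ (squares), under control and stress, with lines joining the means of 3 libraries. For OsMT1b, OCPI2 and OsJRL the LJ line is the steeper rise, for OsAsr2 the QJ line is steeper, and for RBCS and PSBW the LJ line is the steeper fall.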

How the data were processed

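Per the labels, leaf total RNA went through a NovaSeq X Plus sequencer. The deposited tables give FPKM per gene and library, computed by the authors, with their group means. The authors also deposited a fold ratio, its log2 value and a p-value with its adjusted p-value for each gene. The authors' aligner, genome build, counting and test: not given in the sources used here. By their values, the tables hold only genes whose deposited log2 fold is 1 or more in size and whose adjusted p-value is below 0.05. Of 31572 values present in more than 1 table, 0 differed by over 0.005 FPKM. The variety rests on the column headers.

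Limma 3.58.1 in R 4.3.3, with a trended prior, was fitted to log2(FPKM + 1) for genes reaching 1 FPKM in 3 or more libraries. The difference between varieties was fitted over all 12 libraries. Tests were two-sided with Benjamini-Hochberg adjustment. The 170 named genes had adjusted p of at most 0.000516. They were, among passing named genes whose groups did not overlap, the 12 each way highest in the group where they were higher, the 8 each way with the largest change in mean FPKM, and up to 3 of each gene list by mean FPKM. For the difference of responses, they were the 3 largest each way among those chosen by the first 2 parts. Genes outside this rule, such as other members of a list, were chosen after their values were seen. Folds are 2 to the size of the limma difference. The members, lists and tests were chosen with earlier results of these data known, and 6 of the 55 lists were drawn up after values were seen. Lists match gene names, so unnamed genes are in none. Names seen to be shared by different families were left out, but gene products were not checked, so a list can hold members of other families. In simulated data for the QJ comparison (3457 genes), 88.4% of genes given a log2 change of 1 and 59% of those given 0.5 were recovered, with 2.06% of calls false. For the difference of responses (4742 genes) these were 84%, 41% and 5.3%. The simulations changed a small part of the genes, whereas nearly all listed genes were selected as changed. Their rates therefore do not describe the calls made here. Alternatives were other pseudocounts and filters, rescaling, centring, other priors, a fold threshold, a replicate block and leaving out each library. Tables were handled with Python 3.11.15, pandas 2.3.3 and numpy 2.4.6, and figures drawn with matplotlib 3.10.9. Without reads or a genome of the files' build, no sequence and no coordinate was used.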

Additional observations from a re-analysis of the deposited data

Results flagged for a closer look

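In 6 genes the stress response differed between QJ and LJ by the test of the difference itself (limma over 12 libraries, Benjamini-Hochberg adjustment over 5170 genes). They were the 3 largest differences each way among 14 genes chosen for abundance or size of change. All 14 passed, as did 3431 of the 5170 genes (66.4%). The values are QJ minus LJ on the log2(FPKM + 1) scale. The difference was -3.58 for OsMT1b (Os03g0288000), -2.43 for OCPI2 (Os01g0615100) and -2.32 for OsJRL (Os01g0348900), which rose in both varieties and less in QJ. It was 1.15 for PSBW (Os01g0773700) and 1.01 for RBCS (Os12g0274700), which fell in both and, on that scale, less in QJ. PsbR (Os07g0147500), not among the 6, fell more in QJ at -0.67 and at -0.96 after rescaling. The difference was 0.65 for OsAsr2 (Os01g0963600), which rose more in QJ. All 3 libraries of a group lay on the same side of the other group in each variety, which for QJ the choice of genes required. Adjusted p ranged from 4.6e-14 to 9.6e-09. After rescaling to the authors' fold changes all 6 kept their direction and passed, OsAsr2 at 0.36. The groups of 3 libraries were too small for the check for single outlying libraries.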

How the results depend on the processing

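The counts kept within 1.5 times of 3629 passing, 1846 higher and 1783 lower under all alternatives but those that test fewer genes or ask for a larger change. With a filter of 10 FPKM 1884 passed, 923 higher and 961 lower, of 1888 tested, and a test against a change of 1 on the log2 scale passed 2021, 1194 higher and 827 lower. Leaving out each library gave 3612 to 3619 passing, 1844 to 1847 higher and 1765 to 1775 lower. For the difference of responses the filter of 10 FPKM gave 2261 of 2924, and leaving out each library gave 3316 to 3359. Same-numbered libraries did not deviate together from their group means (correlations of 0.0025, -0.045 and -0.0079). The labels do not say whether equal numbers mark samples grown or prepared together. With 3 libraries a group and preselected genes these correlations cannot settle it. With the replicate block 3628 genes passed, 1846 higher and 1782 lower, and 3437 for the difference. Of 2715 recomputed differences of the 170 named genes 0 reversed, and 26 no longer passed, all under the threshold of 1. Rescaling to the authors' fold changes turned the median of the homeobox list to -0.11 and that of the receptor-like and wall-associated kinases to -0.59, from 0.00 and 0.14. In another 37 lists the median moved without turning, and in 16 it stayed the same. With the most abundant member left out, the log2 ratio of summed FPKM stayed the same in only 3 lists. It moved without turning in 40 and turned in 12. Without its most abundant member, the log2 ratio of a list's summed FPKM turned to 0.40 for carbonic anhydrase and malate, -0.079 for sugars, -0.68 for glutathione S-transferases, -0.51 for proteases, 0.062 for F-box proteins, 1.00 for protein phosphatases 2C, -0.11 for bZIP factors, 2.63 for clock genes, 0.21 for lipases and wax, 1.04 for pectin methylesterases, -0.15 for germin-like genes and 1.34 for plantacyanins, each by the removal of that gene. Rescaling left 3289 differences of responses passing, 1593 more positive in QJ and 1696 in LJ, against 2140 and 1291 without it. Unknown depth limits what can be said of low genes.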

Other observations

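The FPKM and the authors' deposited fold changes parted for a small number of listed genes. Of 2719 genes with both group means at 1 FPKM or more, 39 lay more than 0.5 from the authors' log2 fold change after the common shift of 0.145 was taken off, and 13 more than 1. For OsIAA4 (Os01g0286900) the values went from 2.02 ± 0.196 to 1.41 ± 0.294 FPKM while the authors' deposited table gives a log2 fold change of 1.38. OsSRFP1 (Os03g0348900) went from 4.01 ± 0.691 to 25.4 ± 1.07 FPKM, against a log2 fold change of 1.31 in the authors' deposited table. GA20OX4 (Os05g0421900) went from 38 ± 0.83 to 26.7 ± 1.34 FPKM, against -1.30 in the authors' deposited table. These genes were chosen after their values were seen.

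Every listed plastid gene and small RNA had a lower mean under stress, and gene-ndhB and gene-ndhB-2 held identical values, as did gene-rp12 and gene-rpl2. OsVQ2 (Os01g0653300) was listed at 0 in the QJ controls and at 0.85, 2.17 and 22.3 FPKM in the stressed libraries. Another 27 genes were low in the QJ controls and stressed LJ libraries and high in the LJ controls, with no stressed QJ value.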
